A study of Junonia coenia with 24 samples.

Results

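The most strongly open forewing intervals of the buckeye butterfly Junonia coenia were 403 of 500558 intervals in the forewing count table, or 0.0805% of them. An interval was taken when its CPM (its count divided by the library's total count in intervals and scaled to 1000000 counts) averaged at least 100 over all 12 forewing libraries. The counts that chose these intervals are described below with no test, and the hindwing libraries had no part in the choice. Stage differences in the forewing rest on the same libraries as the choice. Without the 3 libraries of their highest stage, 154 of the 403 fell under 100 CPM, so for these a difference from that stage is given with no p-value, and counts of calls over the set are descriptions set beside the share of all tested intervals. The rule ranks intervals by their total count, which grows with width as well as with openness.

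ATAC-seq measures open chromatin: a hyperactive Tn5 transposase cuts and tags DNA that is not covered by nucleosomes, so promoters, enhancers and other regulatory DNA in use give many reads. In insect wings, regions of open chromatin are known to be remodelled through metamorphosis, when pulses of the steroid hormone ecdysone drive the change of the larval wing disc into the pupal and adult wing. Strongly open regions in any tissue usually include promoters of widely used genes and clusters of enhancers. The tables give contig names and positions and no genes, so nothing is said here of which genes lie beside an interval, and the identity of the tissue could not be checked with marker genes. The sources used here do not name the genome build of the contigs.

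The libraries came from whole wing tissue of caterpillars and pupae kept at about 27 °C. Forewings and hindwings were sampled separately in the 5th instar, at the prepupa, 72 h after pupation and 6 d after pupation, a group titled day 7 by the submitters. There were 3 libraries in each of the 8 groups, with no genotype, treatment or sex in the labels. The design text names left and right wings, and the labels do not say which side, how many wings or how many animals a library holds. The p-values below therefore measure only the spread between these libraries, which may be technical.

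Forewing libraries held 7733254 to 22020858 counts and hindwing libraries 6977525 to 14795457, and the median count of the 403 intervals in a forewing library was 1432. Counting error was thus small for most of them beside the spread between replicates. The median standard error of their log2 changes was 0.20 to 0.21 for the forewing steps, against 0.41 to 0.45 over all tested intervals. In the hindwing, the prepupa library of replicate 2 stood apart from the other two of its group. It put 7.39% of its counts into intervals that overlap the 403, against 4.10% and 4.01% in replicates 1 and 3. The hindwing results that it moved most are given with and without it.

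The stage labels of the wings did not line up in these intervals. Levels were set on a log2 scale relative to each wing's own average of its 4 stages, and then compared over the 403 intervals. The hindwing group labelled 72 h was most like the forewing group labelled 6 d (Spearman rho 0.97), the hindwing 6 d group was most like the forewing prepupa group (rho 0.95), and the hindwing prepupa group was most like the forewing 72 h group (rho 0.78, and 0.72 without prepupa replicate 2). For groups with the same label, rho was 0.97 at the 5th instar, -0.16 at the prepupa, -0.39 at 72 h and -0.36 at 6 d. These correlations are descriptions over intervals of the same libraries. The labels are kept as given, and every stage name below is the labelled one.

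The intervals were wide. Their median width was 2394 bp, with the middle of the distribution between 1654 and 3573 bp, against a median of 1666 bp for the 1014 intervals with a mean of 50 to 100 CPM and 122 bp for all intervals. A width of at least 2 kb was found for 248 of them (61.5%), against 0.354% of all intervals. Of the 66 intervals in the table that reached 5 kb, 42 belonged to the set. The widest lay on contig 000012F from 2576532 to 2598105 and spanned 21574 bp, and the next widest, on 000016F from 156198 to 169513, spanned 13316 bp. The set covered 1.14% of all interval sequence.

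Levels per kb follow from the CPM that chose the set and are a description. The median per kb of interval was 59.1 CPM in the 403, 40.2 CPM in the intervals of 50 to 100 CPM and 6.50 CPM in all intervals. The 10 intervals with the highest CPM per kb were all in the set, as were 32 of the highest 100 and 216 of the highest 1000. The others of those 1000 did not reach 100 CPM, so the set is the strongest by total count rather than by density. Across all intervals the mean CPM followed width closely (Spearman rho 0.96), and among the 403 it hardly did (rho 0.18); both are descriptions, since the threshold removes low values.

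**Figure D1:**
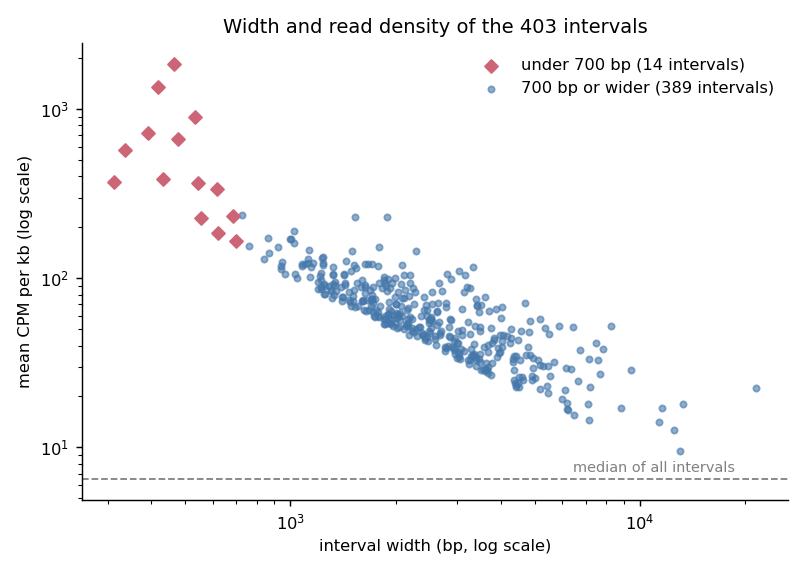
Each point is 1 of the 403 intervals, placed by its width in bp and its mean CPM per kb over 12 forewing libraries, both on log scales; the dashed line is the median of all intervals, 6.50 CPM per kb. The 14 intervals under 700 bp (diamonds) reach 166 to 1845 CPM per kb, and the sloping lower edge of the cloud is the 100 CPM threshold itself.

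The mean CPM of the set reached 855.9 and had a median of 133. Values ran on without a gap across the threshold. Just inside lay 000005F from 85025 to 86894 (100.17 CPM), 000085F from 847169 to 849024 (100.05 CPM) and 000023F from 2978397 to 2982153 (100.03 CPM). Just outside lay 000000F from 1766668 to 1770439 (99.7 CPM), 000086F from 1139327 to 1141063 (99.6 CPM) and 000026F from 1729408 to 1734124 (99.5 CPM). In all 12 forewing libraries at once, 51 of the 403 reached 100 CPM. In the prepupa libraries 272 of them stayed under 100 CPM in every replicate.

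The set was spread over 158 of 964 contigs, and these contigs held 54.2% of the length spanned by intervals. The density over all contigs was 0.72 intervals of the set per Mb. Contigs 000017F and 000019F held 9 each, 000001F, 000002F and 000006F held 8 each, and 58 contigs held 1. Contig 000130F was the most crowded of those with at least 7, with 7 intervals in 1.39 Mb, or 5.05 per Mb. Gaps of at most 10 kb joined 70 of the intervals into 30 runs, of which 23 were pairs. The longest run lay on 000023F from 2954560 to 2987263 and joined 5 intervals. Neighbours did not always share their stage of highest level, which was the same throughout 14 of the 30 runs.

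Among the 403, 14 were under 700 bp wide, a limit chosen after the widths were seen. It marks no break in density: wider intervals reached 238 CPM per kb, and the narrow ones began at 166. The strongest interval of the whole table was one of them: 000148F from 71204 to 71667, only 464 bp wide, with 855.9 CPM on average. The narrowest were 000329F from 143014 to 143325 (312 bp) and 000010F from 1879312 to 1879647 (336 bp). Of these 14 intervals, 11 were highest in the 5th instar and 3 at 6 d, compared below on the same scale as the rest.

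Levels by stage are given as scaled CPM, in which library sizes were corrected with TMM factors (trimmed mean of M-values) from all tested intervals. The 4 forewing groups below always run from the 5th instar to 6 d.

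The share of all forewing counts that fell into the 403 intervals averaged 7.35% ± 0.93 in the 5th instar, 3.42% ± 0.35 at the prepupa, 6.95% ± 0.53 at 72 h and 7.61% ± 0.34 at 6 d (SD, n = 3 each). By library it was 6.30%, 7.67% and 8.08% in the 5th instar, 3.04%, 3.46% and 3.74% at the prepupa, 6.65%, 7.55% and 6.63% at 72 h, and 7.99%, 7.46% and 7.37% at 6 d. All 3 prepupa libraries lay below every other forewing library. The rule used these counts, so the values are a description. The next lower intervals, of 50 to 100 CPM, moved alike, with 8.06%, 4.17%, 7.10% and 8.32% in the same order of stages. The strongest 1% of all forewing intervals held 16.8% to 19.0% of the counts in the prepupa libraries and 26.4% to 33.2% in the others. Reads were thus less concentrated in strong intervals in the prepupa libraries, and the part of this in the stage differences below was not tested.

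In the hindwing, the intervals overlapping the set held 7.31% ± 1.36 of the counts in the 5th instar, 5.17% ± 1.93 at the prepupa, 7.77% ± 0.38 at 72 h and 3.34% ± 0.12 at 6 d (SD, n = 3 each). Without prepupa replicate 2 the prepupa mean was 4.06%. The lowest group was thus the one labelled 6 d in the hindwing and the one labelled prepupa in the forewing. Hindwing overlaps of the intervals of 50 to 100 CPM moved alike, with 7.96%, 5.53%, 8.44% and 4.09%. The strongest 1% of all hindwing intervals held 15.9% to 17.1% of the counts at 6 d and 30.1% to 32.3% at 72 h. In prepupa replicates 1 and 3 it held 16.5% and 17.1%. The part of this in the hindwing stage differences was not tested.

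**Figure D2:**
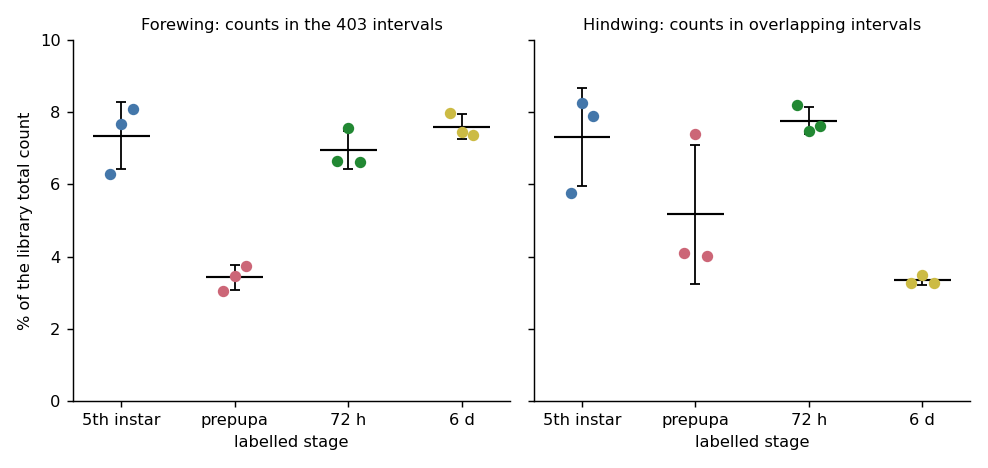
Percent of each library's total count that fell into the 403 intervals (forewing, left) or into hindwing intervals overlapping them (right), by labelled stage; points are libraries, bars the mean and SD of 3. The prepupa libraries are lowest in the forewing, at 3.04% to 3.74%, and the 6 d libraries in the hindwing, at 3.27% to 3.48%, while 1 hindwing prepupa library lies at 7.39%.

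Whether openness differed between stages was asked first with a joint test over the 4 forewing groups (edgeR quasi-likelihood F test, Benjamini-Hochberg adjustment over 253438 tested intervals, called at an adjusted p under 0.05). All 403 intervals passed the filter on low counts. Of them 401 (99.5%) were called, against 52.9% of all tested intervals and 96.7% of those of 50 to 100 CPM. Without the prepupa libraries 275 were called, against 35.3% of all tested intervals. The ratio between the highest and the lowest group mean had a median of 4.26, and it reached 10 or more in 29 intervals.

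The 2 intervals not called included the steadiest of the set, 000090F from 873317 to 876978 (3662 bp). It had 103, 132 and 137 scaled CPM in the 5th instar, 76.8, 97.8 and 102 at the prepupa, 120, 141 and 116 at 72 h, and 146, 131 and 119 at 6 d. The 5th instar, 72 h and 6 d libraries overlapped, and the prepupa libraries lay below all of them. Its highest mean was 1.43 times its lowest, and its adjusted p was 0.0848. The next steadiest were 000000F from 1814537 to 1819993, called in the joint test at an edgeR adjusted p of 0.0209, and 000021F from 31234 to 34270, also called.

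With TMM factors, 211 intervals had their highest group mean at 6 d, 129 in the 5th instar, 60 at 72 h and 3 at the prepupa, while 373 had their lowest mean at the prepupa. The median scaled CPM over the set was 194 in the 5th instar, 64.3 at the prepupa, 157 at 72 h and 213 at 6 d. This order of levels depends on the scaling. Offsets fitted by loess, which let the correction of a library vary with the strength of an interval, turned the median change of the set round at both steps that involve the prepupa.

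From the 5th instar to the prepupa, 359 intervals were called lower and 9 higher with TMM factors, against 20.2% and 11.3% of all tested intervals. The median log2 change was -1.61 in the set and -0.0037 over all tested intervals, but with loess offsets the set's median was 0.38, with 79 called lower and 218 higher, against 17.3% and 14.3% of all tested. Called the same way with TMM factors, library totals and loess offsets were 79 falling and 9 rising intervals, against 12.6% and 11.1% of all tested. For 174 of the falling ones the loess fit called the opposite direction. The intervals of 50 to 100 CPM were close behind with TMM factors, with 81.7% called lower and a median of -1.48.

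From the prepupa to 72 h, 354 intervals were called higher and 3 lower with TMM factors, against 18% and 6.99% of all tested intervals. Called higher were thus 87.8% of the set, and 77.8% of the intervals of 50 to 100 CPM. The set's median log2 change was 1.34 with TMM factors and -0.23 with loess offsets, under which 90 were called higher and 188 lower, against 15.3% and 10.6% of all tested. All 3 scalings called 90 higher and 3 lower, against 12% and 6.74% of all tested.

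From 72 h to 6 d, 193 were called higher and 47 lower, against 14.5% and 13.1% of all tested intervals, and the median log2 change was 0.51. Called higher were thus 47.9% of the set, and 41.6% of the intervals of 50 to 100 CPM. With loess offsets 132 of the set were called higher and 129 lower, against 14.5% and 13.7% of all tested. All 3 scalings called 132 higher and 47 lower, against 10.7% and 12.5% of all tested. Without replicate 1 of the 72 h forewing libraries, 128 were called higher, and the share of all tested intervals in that fit is not given. With library totals as the only scaling, the median over all tested intervals moved to 0.50, -0.46 and -0.25 at the 3 steps, and the set's median lay at -1.09, 0.90 and 0.30.

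**Figure D3:**
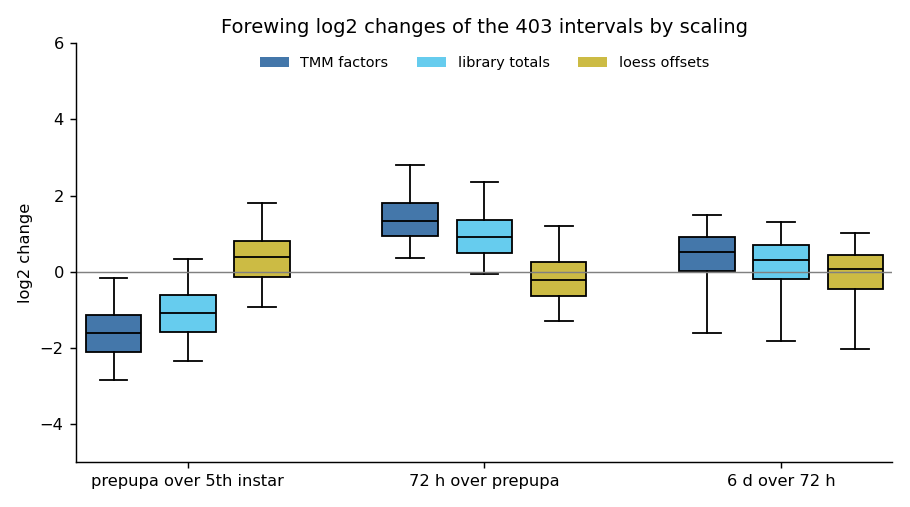
Log2 changes of the 403 intervals at each forewing step (later over earlier label) under 3 scalings; boxes span the quartiles with the median line, whiskers the central 90% of intervals. With TMM factors the medians are -1.61, 1.34 and 0.51, and with loess offsets they are 0.38, -0.23 and 0.06, so the direction of the first pair of steps turns round.

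The most common sequence of calls with TMM factors was lower, higher, higher over the successive steps, in 157 intervals, followed by lower, higher and no call in 142, against 1.92% and 7.6% of all tested intervals. When the set was split by width into 3 classes of like size, in the widest class (135 intervals, 3138 bp or more), 103 were called lower at the prepupa with TMM factors and 9 with loess offsets, under which 115 were called higher, and 41 had their highest mean at 72 h. In the narrowest class (134 intervals, up to 1870 bp), 130 were called lower at the prepupa with TMM factors and 49 with loess offsets, under which 36 were called higher, and 6 were highest at 72 h. The shares of all tested intervals called lower at this step were 20.2% with TMM factors and 17.3% with loess offsets. Whether these classes differ beyond their differing widths and counts was not tested.

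**Figure D4:**
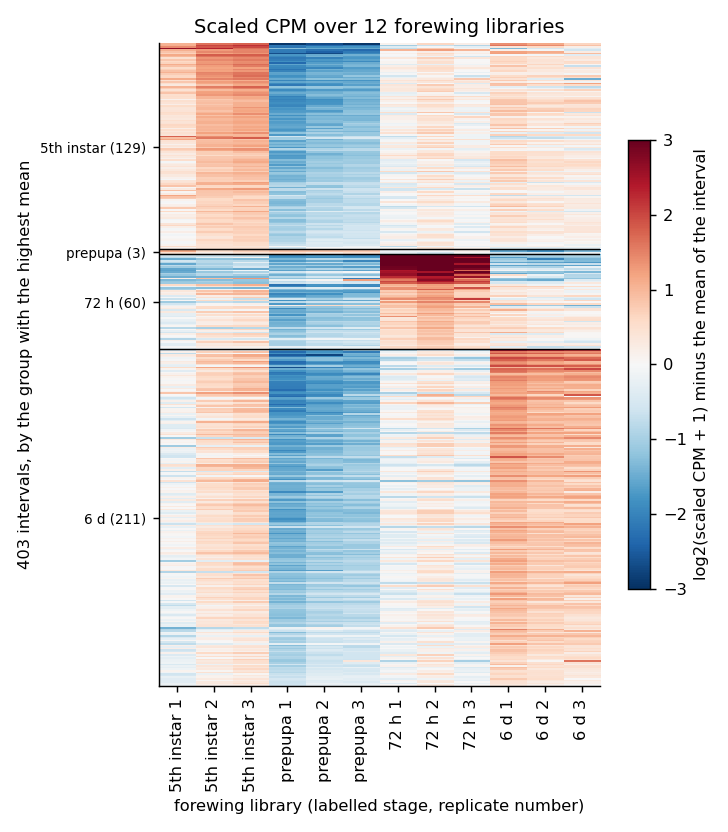
Scaled CPM of the 403 intervals in 12 forewing libraries, as log2(scaled CPM + 1) minus the interval's mean; rows are grouped by the stage of highest mean with TMM factors (129, 3, 60 and 211 intervals) and sorted within groups by the ratio of highest to lowest mean. The low prepupa columns rest on TMM factors (loess offsets turn the median change at the prepupa round), and a dark block at the top of the 72 h group marks intervals far above all other stages.

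The strongest interval, 000148F, had 1421, 1412 and 1440 scaled CPM in the 5th instar, 546, 514 and 635 at the prepupa, 627, 917 and 907 at 72 h, and 1115, 1143 and 1050 at 6 d. The 5th instar libraries were highest and tightly grouped, and 1 of the 72 h libraries lay within the prepupa range. At the prepupa its log2 change was -1.33 ± 0.17 (SE, edgeR adjusted p = 6.74e-06) with TMM factors. With loess offsets it was 1.36, which was also called, in the opposite direction.

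The second strongest, 000072F from 1055135 to 1055552 (418 bp), averaged 992 ± 90.4, 335 ± 35.7, 570 ± 133 and 671 ± 38.7 scaled CPM over the 4 stages (SD, n = 3 each). Its count was 0.57 to 0.76 of that of 000148F in every one of the 24 libraries of both wings, although the intervals lie on different contigs. The highest of these ratios was 1.34 times the lowest. Other narrow intervals were nearly as even, with 1.41 for 000564F, 1.45 for 000022F and 1.55 for 000010F, while 000338F reached 15.7.

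The fourth strongest, 000705F from 32486 to 33017 (532 bp), varied more among replicates. It had 1471, 1148 and 907 scaled CPM in the 5th instar, 285, 221 and 272 at the prepupa, 260, 669 and 392 at 72 h, and 240, 305 and 337 at 6 d. The 5th instar libraries lay above all others, and 1 of the 72 h libraries lay within the prepupa and 6 d ranges while the others lay above both. Another narrow interval, 000338F from 25294 to 25847 (554 bp), ordered its replicates alike within each group except the prepupa, with 523, 423 and 268 in the 5th instar, 34.9, 28.8 and 28.7 at the prepupa, 50.1, 143 and 78.3 at 72 h, and 32.3, 58.7 and 68.0 at 6 d. In the hindwing these intervals shared their order of replicates in all 4 groups.

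The third strongest was the 21574 bp interval on 000012F. It had 378, 461 and 561 scaled CPM in the 5th instar, 344, 381 and 352 at the prepupa, 543, 680 and 489 at 72 h, and 1012, 809 and 611 at 6 d. The 5th instar and prepupa libraries overlapped, and the log2 change between them, -0.38 ± 0.20 with TMM factors, was not called (edgeR adjusted p = 0.155); with loess offsets it was 2.13 and called. Another 5 of the strongest intervals, on 000169F, 000035F, 000337F, 000195F and 000038F, had their lowest group at the prepupa with TMM factors, at 84.9 to 157 scaled CPM on average.

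Among these, 000169F from 604271 to 606158 (1888 bp) stood out at 6 d. It had 312, 483 and 554 scaled CPM in the 5th instar, 112, 128 and 152 at the prepupa, 360, 440 and 335 at 72 h, and 1255, 1074 and 1070 at 6 d. The 6 d libraries lay above all others, and the change from 72 h was 1.58 ± 0.20 on the log2 scale (edgeR adjusted p = 7.30e-06) with TMM factors and 0.97 with loess offsets.

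Interval 000032F from 2594497 to 2602776 (8280 bp), the sixth strongest, was open mainly at 72 h. It had 68.6, 79.6 and 71.1 scaled CPM in the 5th instar, 86.2, 111 and 103 at the prepupa, 1509, 1980 and 1456 at 72 h, and 162, 153 and 119 at 6 d. Every 72 h library was above 1400 and every other library was below 170. The log2 change from the prepupa to 72 h was 4.04 ± 0.20 (SE) with TMM factors and 2.09 with loess offsets, and that from 72 h to 6 d was -3.51 ± 0.20. Without its 72 h libraries its mean was 96.3 CPM.

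This was 1 of 16 intervals, chosen after their values were seen, whose 72 h mean was at least 5 times that of any other forewing stage. Those named below would lie under 100 CPM without their 72 h libraries. The choice of the set thus favoured them, and their changes to and from 72 h are descriptions. The 16 intervals lay on 11 contigs and were 939 to 8853 bp wide. The sharpest was 000006F from 3269329 to 3270267 (939 bp), with 415, 523 and 469 scaled CPM at 72 h and at most 16.5 in any other forewing library. Its change from 72 h to 6 d was -5.46 ± 0.26 on the log2 scale with TMM factors and -5.90 with loess offsets. A second interval on the same contig, from 3278102 to 3279303, had a 72 h mean 14.2 times the next highest.

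Interval 000064F from 656720 to 661044 had 601, 747 and 370 scaled CPM at 72 h, against 11.7, 12.9 and 11.2 at the prepupa, a log2 change of 5.58 ± 0.25 with TMM factors and 3.99 with loess offsets. Interval 000157F from 273778 to 281630 (7853 bp) had 1147, 1429 and 1126 scaled CPM at 72 h, against 30.3, 33.8 and 25.2 at the prepupa, a log2 change of 5.37 ± 0.21. In both, all 72 h libraries lay far above the rest. On 000055F, the interval from 1363313 to 1366258 had 443, 580 and 381 scaled CPM at 72 h, against 22.3, 29.9 and 36.8 at the prepupa and 9.52, 9.08 and 9.54 in the 5th instar. It was among the 9 intervals called higher at the prepupa than in the 5th instar (log2 change 1.66 ± 0.23).

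On contig 000001F, 4 intervals with their highest level at 72 h lay between 4594310 and 4688025. The first, from 4594310 to 4598142, had 632, 1087 and 358 scaled CPM at 72 h and means of 22.4 to 38.9 at the other stages. The interval from 4658154 to 4664393 had 392, 719 and 193 at 72 h, against 9.62, 8.86 and 9.31 at the prepupa. Replicate 2 was the highest and replicate 3 the lowest of the 72 h libraries in all 4. The log2 change of the second one named was 5.55 ± 0.39 from the prepupa to 72 h and -5.02 ± 0.38 from 72 h to 6 d.

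Interval 000926F from 11469 to 15430 (3962 bp) was open mainly at the prepupa, on a contig with 3 forewing intervals that spanned 0.0122 Mb. Its prepupa libraries had 467, 406 and 517 scaled CPM, against 15.8, 9.08 and 10.7 in the 5th instar. At 72 h it had 42.3, 15.3 and 12.7, and at 6 d 15.3, 17.0 and 1.15. The log2 change at the prepupa was 5.29 ± 0.58 with TMM factors and 7.03 with loess offsets, and without its prepupa libraries its mean was 13.2 CPM. The other intervals with a large rise there included 000160F from 518824 to 530204, which had 91.7, 114 and 257 scaled CPM at the prepupa, against 41.4, 43.8 and 47.7 in the 5th instar.

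The deepest falls at the prepupa kept their direction with TMM factors, library totals and loess offsets. Interval 000158F from 604278 to 605310 (1033 bp) had 10.1, 11.97 and 10.1 scaled CPM at the prepupa, against 171, 259 and 282 in the 5th instar, a log2 change of -4.47 ± 0.26 with TMM factors and -2.61 with loess offsets. Interval 000116F from 185758 to 186699 had 16.3, 14.1 and 16.3 scaled CPM at the prepupa, against 162, 306 and 352 in the 5th instar. Interval 000009F from 1618046 to 1619719 had 18.5, 23.8 and 24.98, against 237, 323 and 348. In each, the prepupa libraries lay within a narrow range far below the 5th instar ones. Without their 5th instar libraries, 000158F, 000116F and 000009F lay under 100 CPM, at 79.7, 67.8 and 60.4. The choice of the set thus favoured such falls.

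The 3 intervals called lower at 72 h than at the prepupa were 000926F and a pair on 000179F, which were at their highest in the 5th instar and prepupa. The one from 990928 to 991871 had 92.0, 98.8 and 111 scaled CPM at 72 h, against 183, 181 and 176 at the prepupa (log2 change -0.84 ± 0.19). The one from 974298 to 976637 had 98.3, 83.9 and 118 at 72 h, against 169, 145 and 169 at the prepupa (log2 change -0.69 ± 0.19). Without their prepupa libraries the pair lay under 100 CPM, at 88.6 and 97.8, as did 000926F. The choice of the set thus favoured such falls, and these calls are descriptions.

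The largest rises from 72 h to 6 d were on 000027F, 000025F and 000038F. On 000027F from 254169 to 255329 (1161 bp), the 6 d libraries had 607, 505 and 450 scaled CPM, against 51.1, 73.9 and 52.9 at 72 h, a log2 change of 3.14 ± 0.24 with TMM factors and 2.68 with loess offsets. On 000025F from 725873 to 727480, they had 388, 361 and 313, against 47.0, 59.2 and 42.4 at 72 h. On 000038F from 1637622 to 1639638, they had 325, 306 and 393, against 48.3, 60.1 and 45.8 at 72 h. The 6 d libraries were the highest of all 12 in each. Without them the intervals lay under 100 CPM, at 57.1, 65.8 and 66.7. The choice of the set thus favoured such rises.

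The hindwing libraries had no part in choosing the set. Every one of the 403 intervals overlapped at least 1 hindwing interval, and together they overlapped 908, with a median of 2 and at most 20 per forewing interval. All 1014 intervals of 50 to 100 CPM and 78.2% of all forewing intervals also overlapped one. An overlap of 1 bp was enough, which favours wide intervals. Among them 295 (73.2%) overlapped a hindwing interval whose own mean over the 12 hindwing libraries reached 100 CPM. The share was 0.093% over the 391570 forewing intervals that overlapped any hindwing interval, and 16 of 1014 for those of 50 to 100 CPM. Conversely, 299 of the 315 hindwing intervals that reached 100 CPM (94.9%) overlapped the set. Much of the strongest open chromatin was thus shared between the wings, although a wide forewing interval can be split into several weaker hindwing ones.

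With the overlapping hindwing intervals summed for each of the 403, the group means had medians of 196, 115, 239 and 65.5 scaled CPM from the 5th instar to 6 d, with 78.8 at the prepupa without replicate 2. With TMM factors 265 sums were highest at 72 h, 109 in the 5th instar, 25 at the prepupa and 4 at 6 d. Without prepupa replicate 2 these were 271, 110, 17 and 5. All 211 intervals that were highest at 6 d in the forewing were highest at 72 h in the hindwing. Of the 129 highest in the 5th instar in the forewing, 98 were so in the hindwing and 31 were highest at 72 h there. The 3 highest at the prepupa in the forewing, 000926F among them, were all highest at 6 d in the hindwing.

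The 16 intervals that stood out at 72 h in the forewing all had their highest hindwing mean at the prepupa, and replicate 2 of that group was the highest of all 12 hindwing libraries in each. Without replicate 2, 15 of the 16 were still highest at the prepupa. The other, on 000001F from 4683593 to 4688025, had a prepupa mean of 44.8 scaled CPM then, against 59.4 at 72 h. Interval 000032F from 2594497 to 2602776 had 266, 677 and 266 scaled CPM in the hindwing prepupa libraries, against 53.1, 78.6 and 63.9 in the hindwing 5th instar libraries. Replicates 1 and 3 also lay above the 5th instar libraries there. On 000006F, the interval from 3269329 to 3270267 had 67.9, 214 and 102 scaled CPM in the hindwing prepupa libraries and means of 13.2 to 20.9 at the other hindwing stages. In the set as a whole, prepupa replicate 2 was the highest of its group in 402 of 403 intervals, at a median of 2.43 times the mean of replicates 1 and 3.

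**Figure D5:**
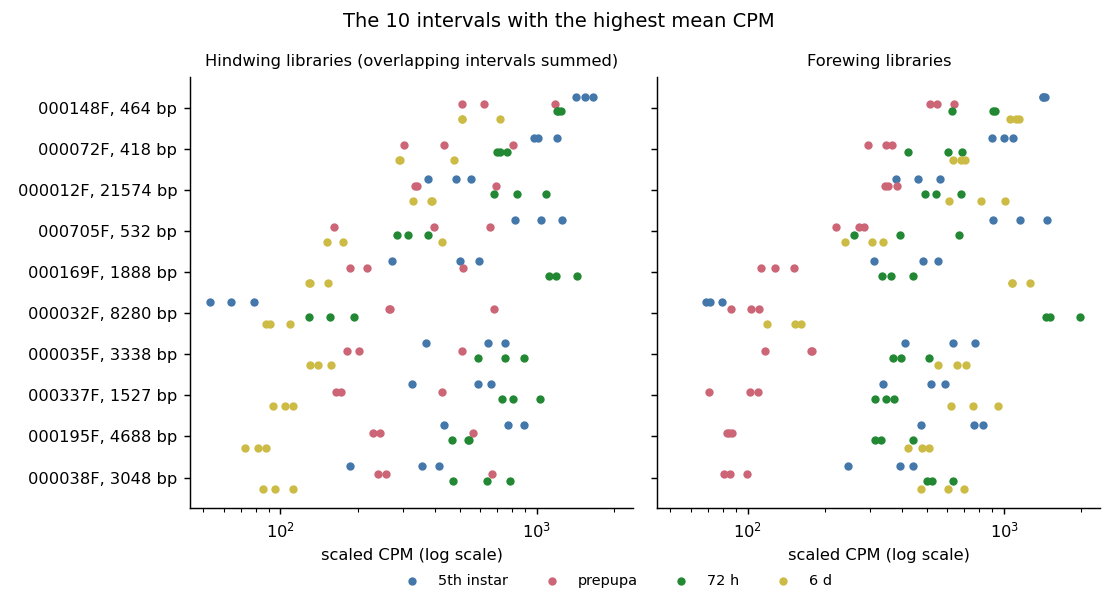
Scaled CPM (log scale) of the 10 intervals with the highest mean CPM, in 12 hindwing libraries (left, overlapping intervals summed) and 12 forewing libraries (right); each point is a library, coloured by labelled stage, and rows are named by contig and width. The interval on 000032F has its 72 h libraries above 1400 in the forewing, and for 000169F the 6 d libraries lie below the 72 h ones in the hindwing and above them in the forewing.

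Of the 908 hindwing intervals, 749 passed the filter on low counts and 610 were called in the joint test over the 4 hindwing stages, against 39.1% of the 258640 tested. Called were thus 81.4% of the set's overlaps, and 79.7% of the overlaps of intervals of 50 to 100 CPM. From the 5th instar to the prepupa, 84 of the 749 were called lower and 61 higher with TMM factors, against 3.77% and 1.47% of all tested. Without prepupa replicate 2 the number higher was 52. The count called lower rested on single libraries: without prepupa replicate 2 the count called lower was 407, without prepupa replicate 1 or 3 it was 20 or 23, and without 5th instar replicates 1, 2 or 3 it was 139, 23 or 24. For fits without a library, here and below, shares of all tested intervals are not given. Their counts show only how far the calls moved. Loess offsets gave 44 lower and 213 higher, against 3.59% and 2.6% of all tested.

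From the prepupa to 72 h, 255 hindwing intervals were called higher and 81 lower with TMM factors, against 12.9% and 7.75% of all tested, and the number called higher was 428 without prepupa replicate 2, 140 and 143 without prepupa replicates 1 and 3, and 162 without 72 h replicate 1. From 72 h to 6 d, 437 were called lower and 78 higher, against 20.9% and 14%. Called lower at 6 d were 58.3% of the set's overlaps, and 58.2% of the overlaps of intervals of 50 to 100 CPM. With loess offsets the balance was reversed at both of these steps, with 70 higher and 300 lower at 72 h (11.6% and 10.1% of all tested), and 319 higher and 106 lower at 6 d (16.4% and 18.2% of all tested). With library totals the median over all tested hindwing intervals moved to 0.39, -0.66 and 0.69 at the 3 steps.

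The clearest hindwing changes kept their direction with loess offsets. The interval matching 000926F, from 11469 to 15425, had 492, 398 and 525 scaled CPM at 6 d, against 18.03, 14.5 and 0.49 at 72 h, a log2 change of 5.41 ± 0.81 (edgeR adjusted p = 3.77e-05). On 000139F from 1034427 to 1036218, the prepupa libraries had 138, 345 and 123 scaled CPM, against 7.30, 10.5 and 14.6 in the 5th instar (log2 change 4.22 ± 0.45, adjusted p = 2.83e-05). On 000116F from 185761 to 186695, which overlaps one of the deepest forewing falls, the prepupa libraries had 39.0, 83.7 and 37.6, against 178, 415 and 334 in the 5th instar (log2 change -2.53 ± 0.41, adjusted p = 0.000764). On 000001F from 243271 to 244398, the 72 h libraries had 301, 232 and 308, against 18.2, 36.6 and 17.6 at the prepupa.

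Whether the wings differ in these intervals was tested at the 5th instar, the label at which their profiles were alike. Intervals were paired by a reciprocal overlap of at least 80%, which left 241 of the 403 among 127816 tested pairs. With edgeR's quasi-likelihood test on all 24 libraries, 0 of the 241 were called higher in the hindwing and 0 lower, against 0.00548% and 0.00235% of all pairs. At an unadjusted p under 0.05 there were 0 higher and 1 lower, against 2.59% and 2.26% of all pairs. The log2 differences (hindwing over forewing) ran from -0.52 to 0.49, and 223 of 241 were under 0.25 in size, beside a median standard error of 0.29. Differences of this size were not detectable with this spread, and the missing calls do not show that the wings were alike.

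The set was chosen on forewing counts alone, and the part of this in a lower hindwing value was not tested. The replicate numbers paired the wings at this stage. With the number as a block and only the 6 libraries of the 5th instar, 2 intervals were called lower in the hindwing and 0 higher, against 0.554% and 0.425% of all pairs tested in that fit. The scaled CPM of this comparison are relative to the counts within the tested pairs and stand higher than those given above. Interval 000046F from 364658 to 365759 had 103, 177 and 163 scaled CPM in the hindwing, against 176, 217 and 228 in the forewing, lower in 3 of 3 pairs (log2 difference -0.50 ± 0.14, edgeR adjusted p = 0.0398). Interval 000179F from 990928 to 991871 had 251, 242 and 179 on this scale in the hindwing, against 408, 256 and 295 in the forewing, also lower in 3 of 3 pairs (log2 difference -0.49 ± 0.14, edgeR adjusted p = 0.0444). In the fit of all 24 libraries neither was called, at -0.49 ± 0.30 for 000046F and -0.52 ± 0.22 for 000179F. A count of 2 is too small to set these intervals apart from the share of all pairs. With loess offsets a single other interval was called, 000130F from 116834 to 118439, at 0.57 ± 0.10 (edgeR adjusted p = 0.0251), whose difference was 0.49 ± 0.30 with TMM factors, and 0.00861% of all pairs were called higher in that fit.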

How the data were processed

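Open chromatin was measured by ATAC-seq in 24 libraries of whole wing tissue, 3 for each of 8 groups of wing and stage. The authors deposited read counts per interval in 1 table for each wing, not normalized. Bowtie2 and deepTools were used, per the submitters' processing notes; versions, genome build, peak caller, treatment of duplicate or multiply mapping reads and whether read ends were shifted for Tn5 are things not given in the sources used here. Reads of repeated sequence or duplicates kept in the counts would raise a count and lower its true precision. Starts counted from 0 were converted to positions counted from 1.

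The members and lists were chosen with earlier results of these data known. Counts were tested with edgeR 4.0.16 in R 4.3.3 (TMM factors, filterByExpr with minimum count 10 and minimum total 15, estimateDisp, glmQLFit, glmQLFTest), with the 4 stages of a wing in 1 fit and Benjamini-Hochberg adjustment over all tested intervals. All adjusted p-values are from these fits. DESeq2 1.42.0, other scalings, filters, thresholds and overlaps and leaving out each library were alternatives. A hindwing overlap was at least 1 bp. Group levels are mean ± SD over 3 libraries. The fits were tested on simulated data with 200 of 20000 intervals changed. Changes of 4-fold were recovered in 63% to 80% of cases, with 0.8% to 7.5% of calls false. Those of 2-fold were recovered in 0.5% to 7%, with up to 33.3% of the few calls false. Among simulated intervals at or above the median level, recovery was 81.8% to 95.7% for 4-fold and 0% to 12% for 2-fold. The simulated intervals were drawn from all tested ones, whose median standard errors were larger than those of the set. Recovery within the set was therefore not measured.

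The rule for named intervals took the 10 with the highest mean CPM, 3 on each side of the threshold, for each forewing step and direction the 3 called intervals (for the hindwing 2) with the largest log2 change and no overlap of libraries, the 3 steadiest, the 2 widest and narrowest, the 3 contigs with the most members and, for the wings, up to 3 called in each direction. Some of these are not printed, among them hindwing fragments of low counts; the intervals that stand out at 72 h, the narrow ones and the runs of neighbours were chosen after their values were seen. Same-numbered libraries of different stages did not deviate together (correlation of deviations from the group means -0.061 to 0.051 for forewing libraries and -0.069 to 0.133 for hindwing libraries). Same-numbered libraries of the wings at the 5th instar did (0.277 to 0.337 in all 3 pairs, against -0.215 to -0.091 for other combinations), so there the numbers were taken as pairs. Such deviations cancel out within a group, so the negative values follow from the positive ones and are no further evidence of pairing.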

Additional observations from a re-analysis of the deposited data

Results flagged for a closer look

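For 5 of the 10 strongest intervals, the 3 libraries of one stage lay wholly above those of the stage before in one wing and wholly below in the other, with TMM factors. Of all 403 intervals, 241 lay apart in such opposite ways from 72 h to 6 d. From the prepupa to 72 h 20 did so, and from the 5th instar to the prepupa 5. The share outside the set is not given, so the count among the strongest is a description and does not set them apart. The difference between the wings was not tested, and the values below are log2 ratios of mean scaled CPM, hindwing minus forewing. From 72 h to 6 d the difference was -1.50 for 000148F (hindwing -1.07, forewing 0.43), -4.76 for 000169F (hindwing -3.18, forewing 1.58), -2.97 for 000035F (hindwing -2.38, forewing 0.59) and -4.22 for 000337F (hindwing -3.05, forewing 1.17). From the prepupa to 72 h it was -5.38 for 000032F (hindwing -1.34, forewing 4.04). With edgeR the forewing change from 72 h to 6 d was not called for 000148F (adjusted p = 0.0608) and 000035F (adjusted p = 0.0531), and with loess offsets it was -0.28 and 0.0013. For the other 3 the forewing change was called and kept its direction with loess offsets. These are intervals in which the labelled hindwing stages run in another order than the labelled forewing stages, as described for the set.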

How the results depend on the processing

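Of the choices tried, the scaling and the threshold of the set moved the results most, and the cause was not tested. Loess offsets gave for the forewing 218 higher and 79 lower at the prepupa, 90 higher and 188 lower at 72 h, and 129 lower at 6 d. For the hindwing they gave 213 higher and 44 lower at the prepupa, 70 higher and 300 lower at 72 h, and 319 higher and 106 lower at 6 d, and 1 interval higher in the hindwing than in the forewing. Library totals gave for the forewing 22 higher at the prepupa, 9 lower at 72 h and 82 lower at 6 d (26.9%, 22.6% and 17.5% of all tested), and for the hindwing 159 lower at the prepupa, 167 lower at 72 h and 159 higher at 6 d (2.96%, 24.3% and 33% of all tested). With at least 50 counts in 3 libraries, 19 forewing intervals were higher at the prepupa, 9 were lower at 72 h, and 177 hindwing intervals were lower at the prepupa. DESeq2 called 188 hindwing intervals lower at the prepupa. Shares of all tested intervals are not given for this filter or for DESeq2. DESeq2 size factors and no low-count filter left each count of calls within 1.5 times its value in the report.

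With a threshold of 50 CPM the set held 1417 intervals of median width 1852 bp. Of these 1382 changed over the stages, 45 were higher and 1187 lower at the prepupa, 1143 higher and 22 lower at 72 h, and 615 higher and 197 lower at 6 d. Of their hindwing overlaps 1951 changed, with 138 higher and 341 lower at the prepupa, 927 higher and 231 lower at 72 h, and 226 higher and 1417 lower at 6 d. The shares of counts were 15.4%, 7.58%, 14.0% and 15.9% for forewing groups and 15.3%, 10.7%, 16.2% and 7.43% for hindwing groups from the 5th instar to 6 d. With a threshold of 200 CPM the set held 60 intervals of median width 3372 bp. All 60 changed over the stages, 1 was higher and 56 lower at the prepupa, 57 higher and 0 lower at 72 h, and 27 higher and 5 lower at 6 d. Of their hindwing overlaps 89 changed, with 8 higher and 7 lower at the prepupa, 38 higher and 10 lower at 72 h, and 7 higher and 68 lower at 6 d. The shares were 2.05%, 0.912%, 1.90% and 2.10% for forewing groups and 2.04%, 1.45%, 2.14% and 0.894% for hindwing groups, and 58 intervals overlapped a hindwing interval of 100 CPM. Both thresholds used the same fits as 100 CPM. The joint tests there called 52.9% of all tested forewing intervals and 39.1% of hindwing ones. How many hindwing overlaps were tested is not given for either threshold, so their counts show only how far the calls moved.

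Choosing the set on TMM-scaled CPM gave a median width of 2177 bp, shares of 8.94%, 4.15%, 8.31% and 9.32% for forewing groups and of 8.91%, 9.52% and 4.07% for hindwing groups at the 5th instar, 72 h and 6 d. Asking for at least 100 CPM in the lowest group gave 74 intervals of median width 3563 bp, shares of 2.13%, 1.14%, 1.74% and 2.25% for forewing groups and of 2.13%, 1.49%, 2.30% and 1.11% for hindwing groups, and 68 with a hindwing interval of 100 CPM. With a reciprocal overlap of 50% for the hindwing, 336 changed over the stages, 12 were higher and 40 lower at the prepupa, 12 lower at 72 h and 7 higher at 6 d, with shares of 6.86% at 72 h and 2.80% at 6 d. The number of overlaps tested under this rule is not given, so these counts show only how far the calls moved.

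Leaving out 1 library at a time gave 397 to 402 forewing intervals changed over the stages, 7 to 10 higher and 345 to 372 lower at the prepupa, 324 to 349 higher and 2 to 3 lower at 72 h, and 128 to 203 higher and 42 to 50 lower at 6 d. For the hindwing it gave 554 to 642 changed, 36 to 60 higher and 20 to 407 lower at the prepupa, 140 to 428 higher and 52 to 76 lower at 72 h, and 63 to 72 higher and 397 to 434 lower at 6 d. Shares of all tested intervals are not given for these fits, so the counts show only how far the calls moved. The hindwing counts moved over 1.5 times as follows. Lower at the prepupa were 20, 407 and 23 without prepupa replicates 1, 2 and 3, and 139, 23 and 24 without 5th instar replicates 1, 2 and 3. Higher at the prepupa were 36 without either of 5th instar replicates 2 and 3. Higher at 72 h were 140, 428 and 143 without prepupa replicates 1, 2 and 3, and 162 without 72 h replicate 1. Lower at 72 h were 52 without 72 h replicate 2. The wing comparison stayed at 0 to 0 calls in either direction. The set itself held 381 to 445 intervals with median widths of 2266 to 2460 bp, and 267 to 314 overlapped a hindwing interval of 100 CPM. The shares ran from 6.58% to 7.83%, 3.34% to 3.81%, 6.19% to 7.40% and 7.15% to 8.12% for forewing groups and from 6.83% to 8.09%, 4.06% to 5.74%, 7.55% to 7.91% and 3.27% to 3.38% for hindwing groups.

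Stage fits with the replicate number as a block left every count within 1.5 times its value in the report, for example 360 forewing intervals lower at the prepupa, though numbers do not pair the stages here. The paired fit of the 6 libraries of the 5th instar, chosen after the data were seen, called 2 lower in the hindwing, where the same libraries without the block called 0. Depth limits mainly the small hindwing fragments: 159 of the 908 overlapping intervals did not pass the filter on low counts.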
